A study of Mus musculus with 52 samples.

Results

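The SmcHD1 antibody was also applied to cells without SmcHD1, and the 244 peaks called there are described here. All peaks of the SmcHD1 list from mut cells were taken, with no further selection. They are 244 of 418635 peaks in 8 lists, and they stand beside 6993 SmcHD1 peaks called in wt cells. The peaks came from chromatin immunoprecipitation followed by sequencing (ChIP-seq) in female clonal mouse embryonic fibroblasts (MEFs) of an F2 cross between M.m.domesticus FVB and M.m.Castaneus. The wt cells were of clone Wt2A1, and the mut cells of clone Mut5A6. The mut clone carries the germline MomeD1 mutation, spelled MommeD1 in the paper, and lacks SmcHD1. The somatic knockout cells (somKO), used here through their CTCF and Rad21 lists alone, were CRISPR clones A3 and D4 made from another wt clone, so that each genotype also differs from the others in clone.

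Each list was called by the authors on merged libraries: SmcHD1 had 3 libraries in each of its genotypes, CTCF had 3, 3 and 4 in wt, mut and somKO, and Rad21 had 2, 2 and 4. SmcHD1 and Rad21 chromatin was fixed with EGS, a long crosslinker, and then formaldehyde, whereas CTCF chromatin was fixed with formaldehyde alone. With 1 list per group there is no replicate error. Shares are followed by 95% Wilson intervals, which cover counting error only, and peaks are not replicates of a genotype, so that no difference between lists was tested. The lists give no read counts, and the depth behind them is unknown.

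SmcHD1 is a non-canonical SMC (structural maintenance of chromosomes) protein that accumulates on the inactive X chromosome and takes part in the silencing of X-linked and some imprinted genes. CTCF is a zinc finger protein that binds DNA and stops cohesin, and Rad21 is a cohesin subunit. The paper reports that on Western blots the SmcHD1 antibody also recognises other, non-specific proteins. In null cells its intended target is absent, and the peaks called there serve as the background of the assay. Regions commonly met among such peaks in ChIP-seq are repeated sequences that are collapsed in the assembly, strongly transcribed short genes and open promoters.

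The following sequences were read from the mm10 reference and show the kinds of region that the results turn on. The first 4 are exons under peaks that were absent from the wt SmcHD1 list. They are printed on the strand of the gene, with exon bases in capitals and the ends of the neighbouring introns in lower case. They lie at chr11:94296876-94297175, chr1:151473059-151473357, chr1:151471618-151471829 and chr17:71394697-71394964, in that order and all on the minus strand.
Luc7l3 exon 8: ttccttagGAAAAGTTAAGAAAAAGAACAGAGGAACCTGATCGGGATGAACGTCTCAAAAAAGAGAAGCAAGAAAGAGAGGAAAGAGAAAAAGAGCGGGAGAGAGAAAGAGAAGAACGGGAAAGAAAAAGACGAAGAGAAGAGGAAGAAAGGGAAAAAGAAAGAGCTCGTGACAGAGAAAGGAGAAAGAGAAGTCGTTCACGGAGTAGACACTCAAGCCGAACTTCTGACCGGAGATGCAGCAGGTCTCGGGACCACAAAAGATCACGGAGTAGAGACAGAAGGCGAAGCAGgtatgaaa
Rnf2 exon 5: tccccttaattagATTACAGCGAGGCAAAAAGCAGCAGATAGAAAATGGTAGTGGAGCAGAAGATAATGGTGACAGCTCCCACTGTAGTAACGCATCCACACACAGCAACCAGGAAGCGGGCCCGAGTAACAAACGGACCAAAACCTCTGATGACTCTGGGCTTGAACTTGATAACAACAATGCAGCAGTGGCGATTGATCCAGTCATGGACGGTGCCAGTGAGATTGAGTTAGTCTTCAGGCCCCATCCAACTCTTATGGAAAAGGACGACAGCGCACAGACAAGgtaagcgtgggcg
Rnf2 exon 6: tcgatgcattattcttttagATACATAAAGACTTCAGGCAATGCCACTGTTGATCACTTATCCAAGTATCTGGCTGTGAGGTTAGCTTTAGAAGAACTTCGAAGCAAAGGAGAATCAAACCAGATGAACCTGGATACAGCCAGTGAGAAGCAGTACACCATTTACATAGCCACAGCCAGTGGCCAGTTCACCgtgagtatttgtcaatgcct
Smchd1 exon 25: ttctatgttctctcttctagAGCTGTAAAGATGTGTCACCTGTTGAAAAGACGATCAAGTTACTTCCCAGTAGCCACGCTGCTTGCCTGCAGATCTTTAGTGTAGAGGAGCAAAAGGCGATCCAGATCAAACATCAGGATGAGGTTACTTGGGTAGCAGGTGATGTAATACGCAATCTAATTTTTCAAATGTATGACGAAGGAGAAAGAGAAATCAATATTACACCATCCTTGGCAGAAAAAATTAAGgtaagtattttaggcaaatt

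The next 3 are matched windows of 120 bases under peaks at Hnrnpk (chr13:58394577-58394696, minus strand) and at 2 of its processed copies, Gm7964 (chr7:83756639-83756758, plus strand) and Gm4130 (chr13:91261969-91262088, minus strand). Capitals mark the bases that differ from Hnrnpk, 2 in Gm7964 and 4 in Gm4130.
Hnrnpk: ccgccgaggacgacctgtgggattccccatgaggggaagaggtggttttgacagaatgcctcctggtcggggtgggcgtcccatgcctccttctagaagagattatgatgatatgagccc
Gm7964: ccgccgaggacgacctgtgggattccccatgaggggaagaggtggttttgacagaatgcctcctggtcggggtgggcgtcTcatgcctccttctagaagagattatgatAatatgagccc
Gm4130: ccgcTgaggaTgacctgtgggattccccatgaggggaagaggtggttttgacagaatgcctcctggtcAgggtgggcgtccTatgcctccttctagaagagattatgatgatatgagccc

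Next comes the tRNA gene n-TVaac7 (chr11:48856637-48856709, plus strand). Capitals mark GGTTCGA, the core of the B box through which RNA polymerase III is recruited.
n-TVaac7: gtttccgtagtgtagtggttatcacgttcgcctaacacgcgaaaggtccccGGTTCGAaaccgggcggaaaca

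The following window of 200 bases is from the largest cluster of peaks, at the proximal end of chromosome 9 (chr9:3025591-3025790, plus strand). Capitals mark the short run TTTTC, which recurs through the window.
chromosome 9 cluster: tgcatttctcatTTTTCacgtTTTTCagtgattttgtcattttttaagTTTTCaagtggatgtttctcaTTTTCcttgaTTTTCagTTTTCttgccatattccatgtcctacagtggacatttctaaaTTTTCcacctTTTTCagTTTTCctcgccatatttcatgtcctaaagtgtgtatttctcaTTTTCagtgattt

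The next window of 150 bases is from a tandem array on chromosome 6 (chr6:47744232-47744381, plus strand). It was found with 0 mismatches at or beside all 7 peaks of that array. It had been chosen for the fewest mismatches across these copies, and some of the matches run past the edge of their peak.
chromosome 6 copy: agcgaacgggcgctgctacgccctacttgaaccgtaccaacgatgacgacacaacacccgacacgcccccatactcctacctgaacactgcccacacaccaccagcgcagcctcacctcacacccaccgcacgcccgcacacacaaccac

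The last is the middle of the peak between the imprinted genes Dlk1 and Meg3 (chr12:109528347-109528496, plus strand). Capitals mark its 21 CpG dinucleotides.
Dlk1 to Meg3: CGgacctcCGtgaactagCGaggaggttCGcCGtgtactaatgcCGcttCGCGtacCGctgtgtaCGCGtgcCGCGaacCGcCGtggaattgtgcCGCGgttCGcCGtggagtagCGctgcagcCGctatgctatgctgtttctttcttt

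The deposited score, taken to rise with the significance given by the peak caller, served only to rank peaks within a list. In the mut list it ran from 13 to 20346, with a median of 85. The highest 2 scores stood apart from the rest. They were 20346 and 19529, both at Luc7l3, and the next was 4087. Only 13 peaks reached 1000, 109 reached 100 and 168 reached 50. The median width was 322 bp.

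**Figure D1:**
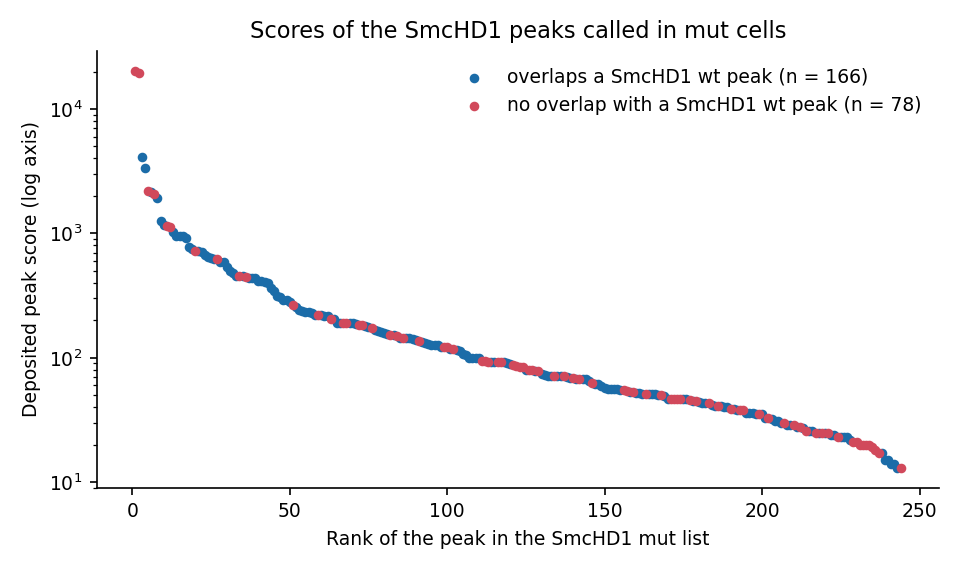
Deposited score (log axis) of each of the 244 SmcHD1 mut peaks against its rank, with peaks that overlap a SmcHD1 wt peak in blue (n = 166) and the others in red (n = 78). The 2 highest points, at 20346 and 19529, are peaks in Luc7l3 that have no wt counterpart.

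Of the 244 mut peaks, 166 overlapped a wt SmcHD1 peak by at least 1 bp, a share of 68.0% (61.9 to 73.6). The other 78 had no wt SmcHD1 peak. Seen from the wt list the overlap was small, since mut peaks touched 163 of 6993 regions (2.33%, 2.00 to 2.71). It was concentrated at the top of the wt list, however. Of the 50 wt peaks with the highest scores, 29 overlapped a mut peak, a share of 58.0% (44.2 to 70.6). Among the first 100 the number was 47, and among the first 500 it was 90. Below the first 1000, the share was 0.918% (0.706 to 1.19) of 5993 wt peaks. The wt peaks that overlapped a mut peak had a median percentile of 94.2 in their own list, where 100 is the highest score.

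All members fall into 6 classes, each peak counted in the first that applied. Repeats masked in the assembly made up at least 90% of the sequence in 42 peaks (17.2%). A further 43 peaks (17.6%, 13.4 to 22.9) lay within 2 kb of a gene for a small structured RNA (tRNA, rRNA, snRNA, snoRNA and the like), and 45 (18.4%, 14.1 to 23.8) within 1 kb of the start of a protein-coding gene. Of the rest, 28 were in other exons, 35 in other introns and 51 in other intergenic sequence. In the wt list, masked repeats were 13.7% of the peaks, peaks near small RNA genes 2.15% (1.83 to 2.51), other exons 6.88%, other introns 24.1% and other intergenic sequence 39.2%. Protein-coding gene starts took 981 of the 6993 wt peaks. The share of peaks also found in wt was not the same in each class. It was 90.5% (77.9 to 96.2) for the masked repeats, 60.0% (45.5 to 73.0) at protein-coding gene starts and 44.2% (30.4 to 58.9) near small RNA genes. By mut score, it was 80.3% (68.7 to 88.4) of the 61 highest-scoring members and 60.7% (48.1 to 71.9) of the 61 lowest.

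**Figure D2:**
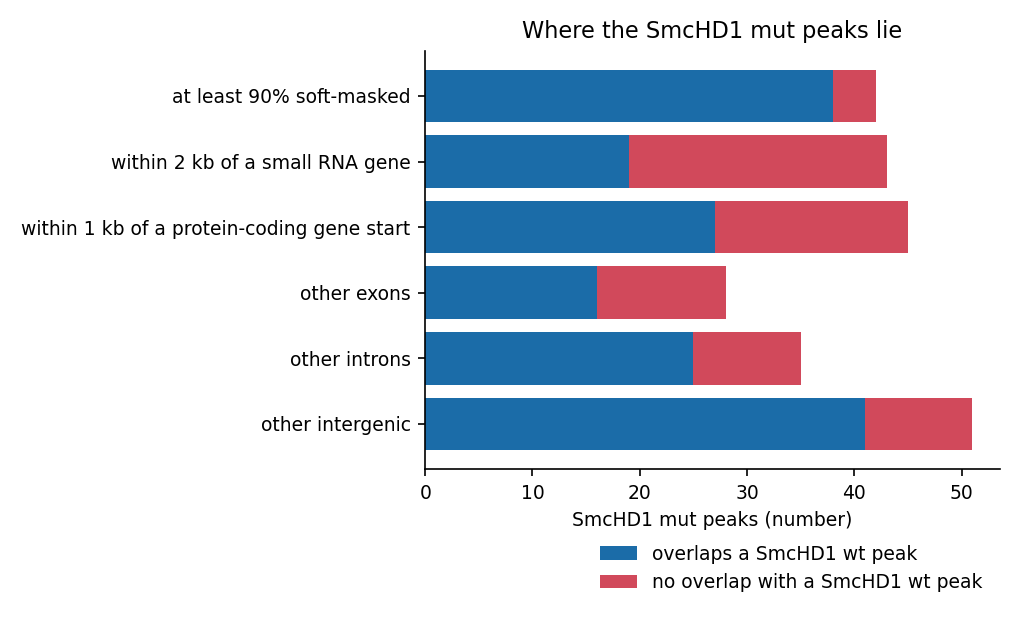
Number of SmcHD1 mut peaks in each of 6 exclusive classes, with peaks that overlap a SmcHD1 wt peak in blue and the others in red. Masked repeats were shared with wt in 38 of 42 peaks, and peaks near small RNA genes in 19 of 43.

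Several strong peaks absent from wt lay over exons. This did not hold for each strong peak of that kind: the AB124611 peak (2173) ran 336 and 987 bp past an exon, and an intergenic peak with a score of 447 at chr17:36231288-36231590 touched no exon. Luc7l3 encodes a protein related to a yeast U1 snRNP factor of splicing. Its strongest peak, at chr11:94291776-94293287, covered the whole of exon 10 of Luc7l3-201 and 66.4% of the last exon. The second peak, at chr11:94296869-94297178, reached 15 bp past exon 8 on the side of the lower coordinate and 11 bp past it on the other. Neither overlapped a peak in any of the 7 other lists. Rnf2 encodes the catalytic subunit of Polycomb repressive complex 1. It had a peak with a score of 457 over exon 5, which started 2 bp inside the exon and ended 9 bp before its other edge. A second peak, with a score of 205, covered 93.0% of exon 6, but it reached 165 bp into the intron on the side of the lower coordinate, and exon made up 49.2% of the peak. Both were absent from the 7 other lists. A peak with a score of 618 at chr17:71394637-71394999 lay in Smchd1 itself, the gene that is mutated in these cells, and covered exon 25 of Smchd1-201 in full. It reached 80 bp past the exon on the side of the lower coordinate and 55 bp past it on the other. The paper places the germline mutation in another exon of the gene. This peak too was found in no other list.

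Hnrnpk encodes an RNA- and DNA-binding protein of the hnRNP family. Its peak, with a score of 1123 at chr13:58394494-58394780, covered 93.2% of a coding exon. The processed pseudogene Gm7964 carried the peak of rank 7 in the list, with a score of 2071. The Gm7964 peak was 1477 bp wide and matched the spliced Hnrnpk transcript over 100% of its length, with an identity of 99.3%. A second Hnrnpk pseudogene, Gm4130, had a score of 721 and an identity of 97.5% with the same transcript over 100% of the peak. Rybp-ps is a processed copy of Rybp, which encodes another Polycomb protein. Its peak scored 1147 and matched the spliced Rybp transcript at 99.2% over 100% of its width. None of these 4 peaks had a wt SmcHD1 or a Rad21 counterpart. Those at Hnrnpk and Gm4130 overlapped CTCF peaks in wt and mut, the one at Gm7964 in all 3 genotypes, and the one at Rybp-ps in somKO.

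Most other members of the first 10 were shared with wt, and 3 of them lay within 1 kb of a protein-coding gene start. The peak in an untranslated region of Slc39a10, a zinc transporter gene, scored 4087 and had a wt percentile of 99.8. A peak 9 bp from the start of Ddx17, an RNA helicase gene, scored 3374, and one 186 bp from the start of Hnrnpa2b1, an hnRNP gene, scored 2146. A peak with a score of 1938 lay 67 bp from the start of Dagla, which encodes diacylglycerol lipase alpha. These 4 peaks overlapped Rad21 peaks in all 3 genotypes, and their wt percentiles were 99.7 to 99.8. The peak at AB124611 (2173) was absent from wt but present in all 6 CTCF and Rad21 lists. The peak shared by Cmss1 and Filip1l (1248) was present in wt and in the 3 CTCF lists, and in no Rad21 list. Over the 45 peaks near protein-coding gene starts, 42 overlapped a Rad21 peak in at least 1 genotype, and 22 a CTCF peak. The same counts were not made for wt peaks near such starts. Over all 244 members, 41.4% were in no Rad21 list and 57.0% in no CTCF list.

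Genes for small structured RNAs carried a visible part of the list. A tRNA gene was overlapped by 14 peaks (5.74%, 3.45 to 9.40), against 20 of the 6993 wt peaks (0.286%, 0.185 to 0.441). These 14 peaks touched 18 of the 425 tRNA genes annotated by RefSeq (4.24%). Counted by gene, the longer wt SmcHD1 list reached more of them, 29 of the 425 (6.82%). Their scores ran from 15 to 266, with the highest at n-TPcgg2. Rad21 peaks overlapped 11 of the 14 in wt, 11 in mut and 12 in somKO, whereas wt SmcHD1 peaks overlapped 4. Over all annotated tRNA genes, a Rad21 peak was present at 23.3% in wt, 28.9% in mut and 36.0% in somKO. The letters GGTTCGA, searched on both strands, were present in 7 of the 14 peaks, in 6.15% of all mut peaks, in 1.66% of wt peaks and in 0.634% of 473 windows of the same widths placed 5 kb to either side of the mut peaks.

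Genes for spliceosomal and nucleolar RNAs were the next group. Within 2 kb of a peak, the nearest small RNA gene was annotated as an snRNA for 19 peaks (7.79%, 5.04 to 11.8), against 0.515% of wt peaks. Only 2 of the 19 overlapped the gene itself, and 7 were shared with wt. The annotations differ on some genes: the 19 include the peaks at Rnu3b4 and Rnu3b1, the latter 1 of those 2. Rnu3b1 counts among the snoRNA entries below. Counted over annotated genes, 9 of 1383 snRNA genes (0.651%, 0.343 to 1.23) had a mut peak in the gene or within 1 kb of its start, against 0.354% of all genes. The share of 1507 snoRNA entries was 0.398% (0.183 to 0.866), near that of all genes, and its 6 entries carried 4 symbols. In the wt list the shares were 1.30% for snRNA and 1.92% for snoRNA entries, against 4.54% of all genes. The second largest cluster of the list, 8 peaks in 39.5 kb at chr12:54698070-54737607, consisted of such peaks: all 8 lay within 2 kb of an annotated snRNA gene, and 7 of the 8 were absent from wt. Their scores were 20 to 153. At Rnu1a1 and 3 Rnu3b genes inside Tex14, 4 peaks spanned 40.3 kb, of which 2 were shared with wt and all 4 were present in the Rad21 list of mut. At Rnu2-10 on chromosome 11, 3 peaks spanned 18.5 kb, and 2 of them were shared with wt. The gene for 7SL RNA, Rn7s1, the RNA of the signal recognition particle, had a peak with a score of 43, which was present in all 7 other lists.

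The 2 ribosomal RNA loci were among the members shared with wt. At the 45S unit annotated on chromosome 17, peaks with scores of 635 and 440 overlapped CT010467.1. Both lay on the same wt peak, with a percentile of 99.5, and on CTCF peaks with percentiles of 99.9 in each genotype, but on no Rad21 peak. At the 5S array on chromosome 8, peaks at n-R5s117 and Gm25212 scored 47 and 49 and had wt percentiles of 99.2 and 98.9. Each had 50 further copies in the genome at 90% identity or more.

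Sequence copies were common. A further match in the mm10 assembly, at 90% identity or more over at least 80% of the peak, was found for 110 of the 244 peaks (45.1%, 39.0 to 51.4). The same share was 54.7% (51.0 to 58.4) in every 10th wt peak and 36.8% (32.6 to 41.2) in the windows 5 kb away. Copies on the same chromosome within 1 Mb were present for 86 peaks (35.2%, 29.5 to 41.4), against 46.7% in the wt peaks searched and 31.3% (27.3 to 35.6) in the windows. Peaks shared with wt had a further match in 54.2% (46.6 to 61.6) of cases, and peaks absent from wt in 25.6% (17.3 to 36.3). By this rule 0 of 244 peaks matched the mitochondrial genome, with an upper bound of 1.55%.

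Peaks within 100 kb of each other formed 23 clusters, which held 82 members (33.6%). The largest lay at the proximal end of chromosome 9, where 10 peaks spanned 36.0 kb at chr9:3000337-3036302. Their GC content was 33.3 to 37.5%, between 87.9 and 100% of their sequence was masked, and each had from 3 to 364 further copies, with a median of 334.5. All 10 overlapped wt peaks, and the percentiles of those were 99.6 to 100. A wt peak here, over a mut peak with a score of 408, had the highest score of the wt list. The mut scores of the 10 were 17 to 956. Of the 10, 9 lay in the Rad21 list of mut, 5 in that of wt and 2 in that of somKO.

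The array of chromosome 6 held 7 peaks in 28.3 kb at chr6:47739704-47768037, in intergenic sequence near Rny3. Their midpoints were 4231 to 5435 bp apart. Each had 14 to 16 further copies at 90% identity or more, and 15 wt peaks lay in the same span. Scores were 26 to 1174, all 7 were shared with wt, and all 7 overlapped CTCF peaks in wt, mut and somKO. Rad21 peaks were present at all 7 in mut and in somKO and at 5 in wt. Another 7 peaks, at chr8:20649066-20707031, had the opposite pattern with respect to CTCF and Rad21: none of the 6 lists had a peak at any of them. These 7 were 88.7 to 100% masked, had 146 to 243 further copies, scored 13 to 65 and were all shared with wt.

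Tmem267 on chromosome 13 had 4 peaks in 5.04 kb of its introns, and the wt percentiles at these were 99.6 to 99.9. The 5 peaks with the highest wt percentiles were 4 of the chromosome 9 cluster and 1 of the Tmem267 peaks. Over the 166 shared peaks, the percentile in mut and the percentile of the overlapped wt peak had a Spearman rho of 0.525. The points share an antibody and the same mapping rules, clustered peaks are not independent, and no p-value is given.

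**Figure D3:**
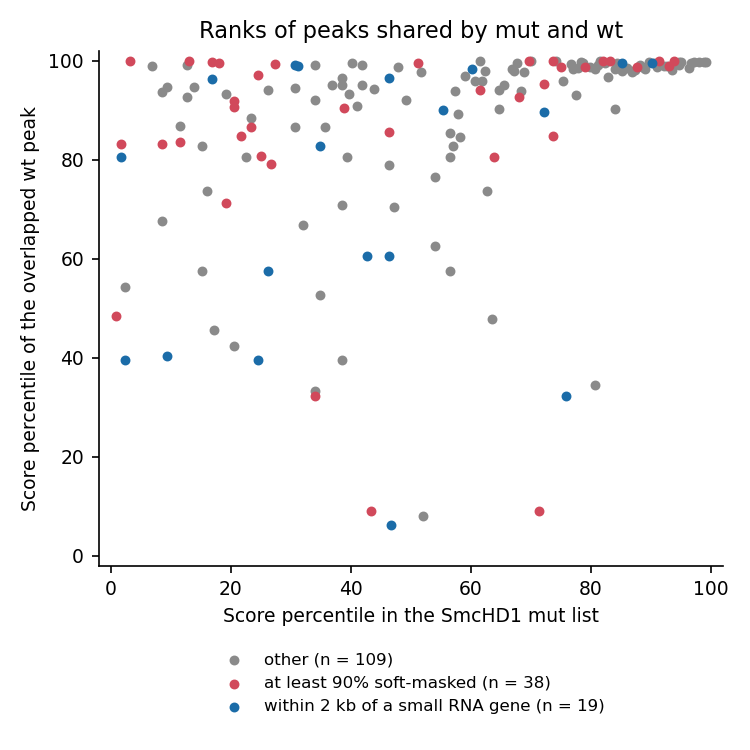
Score percentile of each shared peak in the SmcHD1 mut list (x axis) against the percentile of the wt peak it overlaps (y axis), where 100 is the highest score (n = 166). Points are red for peaks that are at least 90% masked, blue for others within 2 kb of a small RNA gene and grey for the rest. The upper edge is crowded: 108 of the 166 have a wt percentile of at least 90, and 16 lie under 50.

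The chromosomes carried unequal numbers. Chromosome 8 had 30 peaks, chromosome 11 had 24 and chromosome 5 had 21. The X chromosome, which is where SmcHD1 peaks were most numerous in wt beside chromosome 5 (1792 and 1671 peaks), had 1 mut peak. That peak lay in an intron of Gm21887, with a wt percentile of 98.7, and all 6 CTCF and Rad21 lists had a peak there. The autosomes had 0.101 ± 0.0570 mut peaks per Mb (SD over 19 autosomes), and X had 0.00585. Joining peaks within 10 kb left 202 loci, of which chromosome 8 and chromosome 11 each held 21. Chromosome Y had 2 peaks, which lay 958153 and 975340 bp from its end. The X peak lay 1012205 bp from the end of X. The cells are female, and sequence shared by X and Y at these ends was not examined. The Y peaks scored 231 and 45, were shared with wt, and had 1 and 31 further copies in the assembly.

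**Figure D4:**
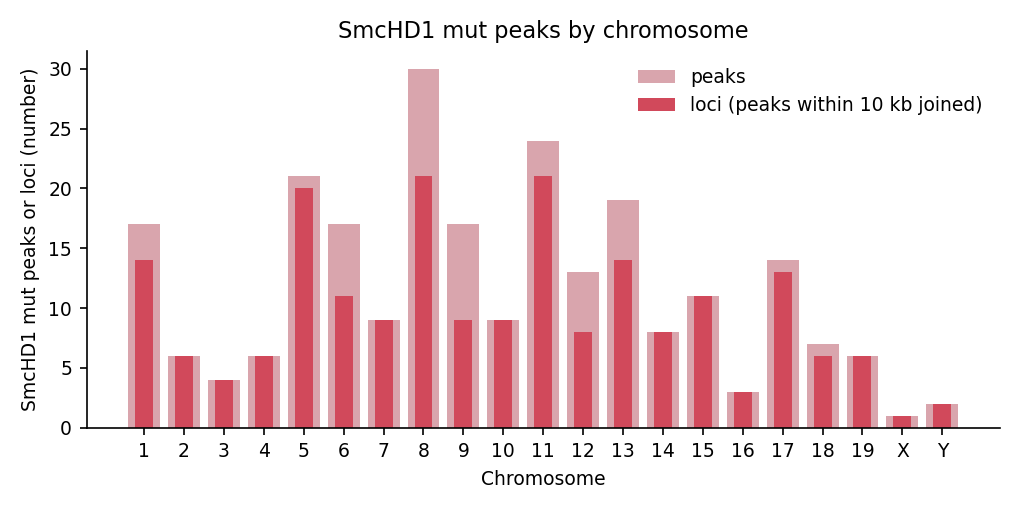
Number of SmcHD1 mut peaks (pale bars) and of loci after joining peaks within 10 kb (dark bars) on each chromosome. Chromosome 8 has 30 peaks in 21 loci, and X has 1 peak.

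Relative to genes, the midpoint lay in an annotated gene for 54.5% (48.2 to 60.6) of the mut peaks and 46.9% (45.8 to 48.1) of the wt peaks, where genes cover 46.0% of the assembled sequence. Exons held 27.9% (22.6 to 33.8) of the mut peaks and 15.6% (14.7 to 16.4) of the wt peaks. The start of a gene of any kind was within 1 kb of 34.4% (28.7 to 40.6) and 20.6% (19.6 to 21.5), and such sequence makes up 3.86% of the assembly. The median GC content was 54.3% in mut peaks, 49.1% in wt peaks and 44.3% in the windows 5 kb away. The median ratio of observed to expected CpG was 0.640, 0.246 and 0.195 in the same order.

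CTCF and Rad21 peaks were found at a larger share of the mut peaks than of the wt peaks in each of the 6 lists. For CTCF, the lists of wt, mut and somKO overlapped 80, 92 and 88 of the 244 peaks. The shares were 32.8% (27.2 to 38.9), 37.7% (31.9 to 43.9) and 36.1% (30.3 to 42.3). The background shares, over all wt SmcHD1 peaks, were 20.4%, 21.4% and 25.6%. For Rad21, the numbers were 101, 121 and 120 of the 244. The shares were 41.4% (35.4 to 47.7), 49.6% (43.4 to 55.8) and 49.2% (43.0 to 55.4), with backgrounds of 25.9%, 25.8% and 32.1%. The wt SmcHD1 peaks lay on X in 25.6% and on chromosome 5 in 23.9% of cases, against 0.410% and 8.61% of the mut peaks. The shares were not matched for chromosome or class. When overlap of at least 50% of both peaks was asked for, the Rad21 shares of the mut peaks were 7.38 to 9.84%. The wt peaks were not counted under that rule. The median Rad21 peak is 581 to 643 bp wide, against 322 bp for the mut peaks.

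**Figure D5:**
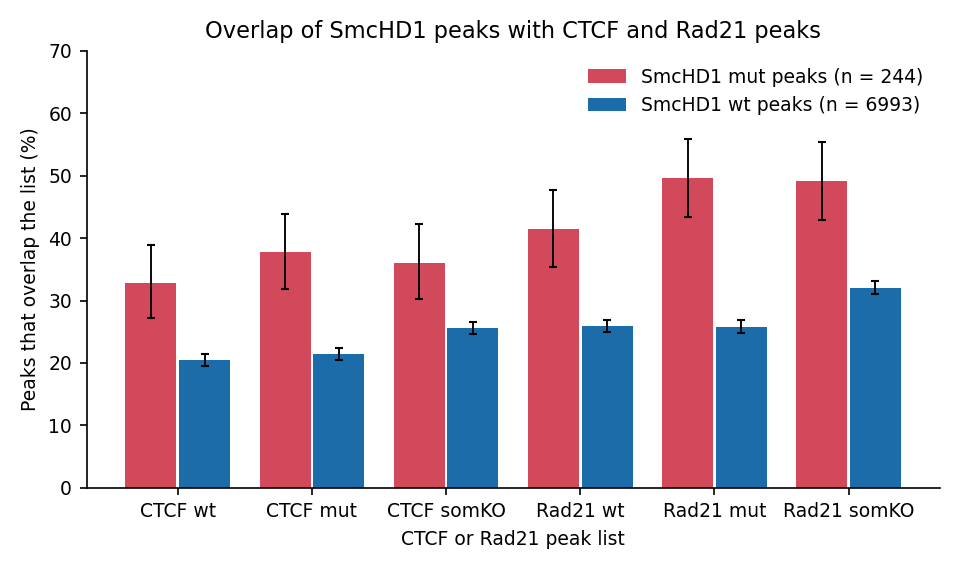
Percentage of SmcHD1 mut peaks (red, n = 244) and of SmcHD1 wt peaks (blue, n = 6993) that overlap a peak of each CTCF or Rad21 list by at least 1 bp, with bars for 95% Wilson intervals. The red bar is the higher of the pair in all 6 lists, from 32.8% for CTCF wt to 49.6% for Rad21 mut.

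The genotypes did not hold the same members. Rad21 peaks were present in mut but not in wt at 30 members and in wt but not in mut at 10, with 91 in both. Among the wt SmcHD1 peaks the corresponding numbers were 263 and 269, with 1542 in both. For CTCF, 17 members were in the mut list but not in the wt list and 5 in wt but not in mut, with 75 in both. Among the wt SmcHD1 peaks these numbers were 237, 169 and 1260. The members were called in the mut clone, and the comparison peaks in the wt clone. What this choice adds to the numbers was not tested. The wt and mut lists are each a single call on merged libraries of 1 clone, so that genotype, clone and list cannot be told apart in these numbers. All 6 lists held 38 of the members (15.6%, 11.6 to 20.7), against 841 of the 6993 wt SmcHD1 peaks. None of the 6 held 70 members (28.7%, 23.4 to 34.7), against 60.2% of the wt peaks. Of the 78 members without a wt SmcHD1 peak, 32 (41.0%) were in Rad21 lists but in no CTCF list, against 37 of the 166 shared members (22.3%). Another 19 of the 78 were in none of the 7 other lists, and these 19 included the Luc7l3, Rnf2 and Smchd1 peaks.

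Members in CTCF lists seldom held the core of the CTCF motif. It was written as CA, any 2 bases, AG, any 2 bases and GGC, and was searched on both strands. It was present in 10.0% (4.93 to 19.2) of the 70 members found in all 3 CTCF lists. Among the 1241 wt SmcHD1 peaks in all 3 CTCF lists it was present in 26.5% (24.1 to 29.0). It was present in 2.88% of the 139 members in no CTCF list, in 10.7% of all wt SmcHD1 peaks and in 7.40% of the windows 5 kb away.

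A short list of imprinted genes was drawn up after the positions had been seen and is given as a description alone. Of 26 such genes, 6 had a mut peak within 50 kb (23.1%, 11.0 to 42.1), and 20 had a wt peak within 50 kb. The shares for all protein-coding genes were 2.09% in mut and 19.9% in wt. The 26 genes are not all protein-coding: Snhg14 is annotated as a processed transcript. Its peak lay within the gene, 177952 bp from its start. The highest score, 621, belonged to the peak between Dlk1 and Meg3 at chr12:109528256-109528588, where the paternally methylated control region of that cluster lies. The others scored 222 upstream of Rasgrf1, 157 at the start of Nap1l5, 123 in Plagl1, 35 at Nnat and 24 in Snhg14. All 6 were shared with wt, and 5 had wt percentiles of 93.3 to 99.7, the exception being Snhg14 at 40.4. None overlapped a CTCF peak, and 1, in Plagl1, overlapped Rad21 peaks. The letters TGCCGC, which the imprint-keeping protein ZFP57 binds when methylated, occurred 3 to 5 times in each of the same 5 peaks, both strands counted, and not in the Snhg14 peak. They were present in 17.2% of all mut peaks, 11.4% of wt peaks and 6.55% of the windows 5 kb away.

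Gene families with many copies were set beside these classes. Defensins (64 genes), vomeronasal receptors (329), olfactory receptors (1135), the Speer family (14), replication-dependent histones (70) and the clustered protocadherins (57) had no mut peak in the gene or within 1 kb of its start. Over all 55413 annotated genes this share was 0.354%, so that few genes of such lists could be hit. The wt list also had no peak at the defensins or the clustered protocadherins. It had peaks at 2 vomeronasal receptors, 3 olfactory receptors, 4 Speer genes and 3 histone genes. Of 394 Zfp genes 5 had a mut peak, namely Zfp316, Zfp777, Zfp36l2, Zfp987 and Zfp622, with scores of 240, 239, 74, 35 and 19. The peaks in Zfp316 (240 and a second one of 62), Zfp777, Zfp36l2, Zfp987 and Zfp622 had their midpoints in coding exons. Zfp36l2, matched by its symbol, encodes an RNA-binding protein of another zinc finger type. The wt list reached 15.7% of the 394 genes, against 7.69% of all protein-coding genes. For the mut list these shares were 1.27% (0.543 to 2.94) and 0.569%. Among 18 annotated genes listed as strongly transcribed in fibroblasts, 1, the long non-coding RNA Neat1, had a mut peak, and among 82 ribosomal protein genes 1, Rps29. Both were counted through a peak whose midpoint lay outside the gene and nearer to the start of another gene. None of 8 imprinted or X-linked loci on a list that included Xist, Firre and Magel2 had a mut peak, against 2 with a wt peak.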

How the data were processed

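Peak lists of SmcHD1, CTCF and Rad21 ChIP-seq in wt, mut and somKO MEFs were used as deposited. The authors mapped reads with bowtie2 to an mm10 index with strain SNPs masked and called narrow peaks with MACS2 at a q-value under 0.05, on reads of both alleles and merged replicates. The score of each peak is the value the authors deposited in the peak lists. Its meaning was inferred from its range, and it was used only as a rank within a list. Tool versions and the use of inputs in peak calling are not given in the sources used here. H3K27me3 and input libraries were not used.

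All members were kept, and both they and the gene lists were chosen with earlier results of these data known. The list of imprinted genes was drawn up after the positions had been seen. Overlap meant at least 1 bp, and clusters joined peaks up to 100 kb apart. The named peaks were the 10 with the highest scores, the 5 with the highest wt percentile, those of the larger clusters and the X and Y chromosomes, and examples of each class, the last chosen after their values were seen. Genes were taken from GENCODE M21, and tRNA and other small RNA genes also from RefSeq. Masked sequence was read from the lower case of the mm10 assembly. Further copies were searched with BLAST+ 2.17.0, at 90% identity over 80% of a peak, for all members, every 10th wt peak and windows 5 kb away. Wilson intervals (95%) were computed with scipy 1.17.1. The scripts, in Python 3.11.15, were tested on simulated peaks. Alternatives were other overlap rules, a score of at least 50, other distances and identities, protein-coding genes alone and members within 10 kb counted once. Those for small RNA genes, and the one without masked members, were added after seeing the data.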

Additional observations from a re-analysis of the deposited data

How the results depend on the processing

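Of 75 alternative values, 49 stayed near the main value and 26 did not, where a share or median was judged by the interval of its main value and a count by a factor of 1.5. When 50% of both peaks had to overlap, the share of mut peaks in the wt SmcHD1 list was 43.4%, in the CTCF lists of wt, mut and somKO 17.2%, 20.5% and 17.6%, and in the Rad21 lists 9.43%, 9.84% and 7.38%. With midpoints within 500 bp, these were 60.2% for SmcHD1 and 33.6%, 41.8% and 35.7% for Rad21. With each somKO list cut to the 57798 peaks of the shortest list, the share was 29.5% for CTCF and 40.6% for Rad21. Without the members that were at least 90% masked, chosen after seeing the data, the Rad21 shares were 48.0%, 55.9% and 57.9%. Of the 168 members with a score of at least 50, 48 lay in clusters, against 82 of all 244, and 22.6% had 10 or more further copies. With protein-coding genes alone, 42.6% lay in a gene and 23.0% within 1 kb of a gene start, and 53.7% lay within 5 kb of a start of any gene. Counting members within 10 kb once, 37.6% had a further copy and 22.8% had 10 or more. That last share was 35.7% at 80% identity and 23.4% at 95%, against 29.1% at 90%. Small RNA genes lay within 2 kb of 17.6% of the members and overlapped 8.61%. The cause of these shifts was not tested beyond the change of rule.

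No paired analysis was possible because each list was called on merged libraries and carries no replicate number. For the same reason, leaving out each replicate was not run. The depth behind the lists is unknown, so that absence from a list is absence from the called peaks and no measure of occupancy.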
